A study of Mus musculus with 16 samples.

Results

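The genes described here encode the proteins that start and extend protein synthesis on cytosolic ribosomes, and the enzymes that load transfer RNAs with amino acids. They were taken from the mm10 RefSeq gene table by symbol. The rule took 53 genes whose symbol starts with Eif and a digit (initiation factors), 15 that start with Eef and a digit (elongation factors and the enzymes that modify them) and 18 listed cytosolic tRNA synthetases, 86 genes of 21887 protein-coding genes in all. Eif2ak3, Eif4ebp1 and Eif4ebp2 were not members; of these, Eif4ebp1 and Eif4ebp2 hold a region. The rule uses no measured value, but it was written with earlier results of these data known. Genes without a region stayed in every count.

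The series profiled beta-hydroxybutyrylation of lysine 9 on histone H3 (H3K9bhb) by chromatin immunoprecipitation and sequencing of occipital cortex homogenate from C57BL/6J mice at postnatal day 35. Mice fasted for 48 h gave 4 immunoprecipitated and 4 input libraries, and mice fed ad libitum gave 4 immunoprecipitated and 4 input libraries. The question was where the mark differs after fasting. The data were 2 deposited lists of regions, 8404 enriched in fasted mice and 1 enriched in ad libitum mice, each region with 1 log likelihood ratio (log-LR) that compares the feeding states and is the authors' own value. Neither list gives values for single libraries. Depth is therefore unknown, and there is no spread between mice, fold change or test between the feeding states. The homogenate mixes cell types, and a change in the number of cells of a type cannot be told apart from a change in the mark per cell. Genes that mark cell types could not be checked as expression. Of 7 neuronal markers 1 held a region at an end (Syt1), of 8 glial and vessel markers 1 (Mbp), and of 6 markers of tissues outside the dissection 0. The share of all protein-coding genes with a region (11.9%) would give 0.83, 0.95 and 0.72, so these counts say nothing about cell types or the dissection.

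Beta-hydroxybutyrate is a ketone body that the liver makes during fasting and that neurons burn in place of glucose, and its acyl group can be placed on histone lysines. Protein synthesis is among the most costly processes of a cell. In initiation, eIF2 brings the initiator tRNA to the small ribosomal subunit, eIF3 holds the complex together, and the eIF4 factors bind the mRNA cap and unwind the leader. Kinases that sense stress, among them sensors of missing amino acids, phosphorylate eIF2 and so block its exchange factor eIF2B. Growth signals through mTOR free the cap-binding protein eIF4E from its inhibitors, the 4E-BPs. Elongation factors then deliver tRNAs and move the ribosome along the message.

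Fasting-enriched regions were found within 1 kb of an end of 17 of the 86 genes (19.8%), against 2609 of all 21887 protein-coding genes (11.9%). The 17 were Eef1a1, Eif4g1, Eif4h, Eif3a, Eif4a3, Eif4b, Eif1, Eif3h, Eif1b, Tars, Eif4a2, Eef1akmt3, Eif5b, Eef1akmt2, Eif4a1, Eef1d and Eef2, in order of their highest log-LR. They held 21 regions. The region of the ad libitum list was at an end of 0 members. Cytosolic ribosomal protein symbols (Rpl or Rps and a number), the other large gene family of the translation machinery, held a region at 14 of 83 (16.9%). The difference in share was not tested. The 11.9% was not matched for CpG in promoters, which was higher in members than in all genes, and higher in genes with a region than without.

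How many genes counted depended on the rule for a region. The percentages in brackets are the share of all protein-coding genes under the same rule. With a window of 500 bp the count of members was 14 (9.55% of all genes), with 3 kb 22 (14.7%), with the centre of the region in the window 17 (11.6%), with the gene body included 21 (18.1%), and where the region had to overlap the gene itself 16 (10.1%). Without regions shared with another coding gene it was 14 (8.85%). From annotated starts alone it was 15 of the 64 members in the promoter table (23.4%, against 13.2% of all coding genes in that table). Among these 15 was Eif4g3, which is not 1 of the 17. With a lower limit of 5 on the log-LR it was 10 (5.90%), and with a limit of 10 it was 0 (0.183%).

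The counts differed between groups made by gene symbol, which follow the steps of translation only in part. The eIF4 group includes Eif4a3, which does not serve in initiation, and the elongation factors include Eef1e1, a synthetase complex scaffold. Genes of the eIF4 group held a region in 6 of 15, where the share of all genes would give 1.79. Elongation factors held one in 3 of 7, where 0.83 would be given. Genes with Eif2 symbols, which cover eIF2, eIF2B and the eIF2 kinases, held one in 0 of 14, where 1.67 would be given, and tRNA synthetases in 1 of 18, where 2.15 would be given. Both of these counts differ from the share of all genes by fewer than 2 genes. Among the Eif2 symbols, Eif2s3x and Eif2s3y lie on sex chromosomes, where few genes of any kind held a region. The differences between groups were not tested.

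**Figure D1:**
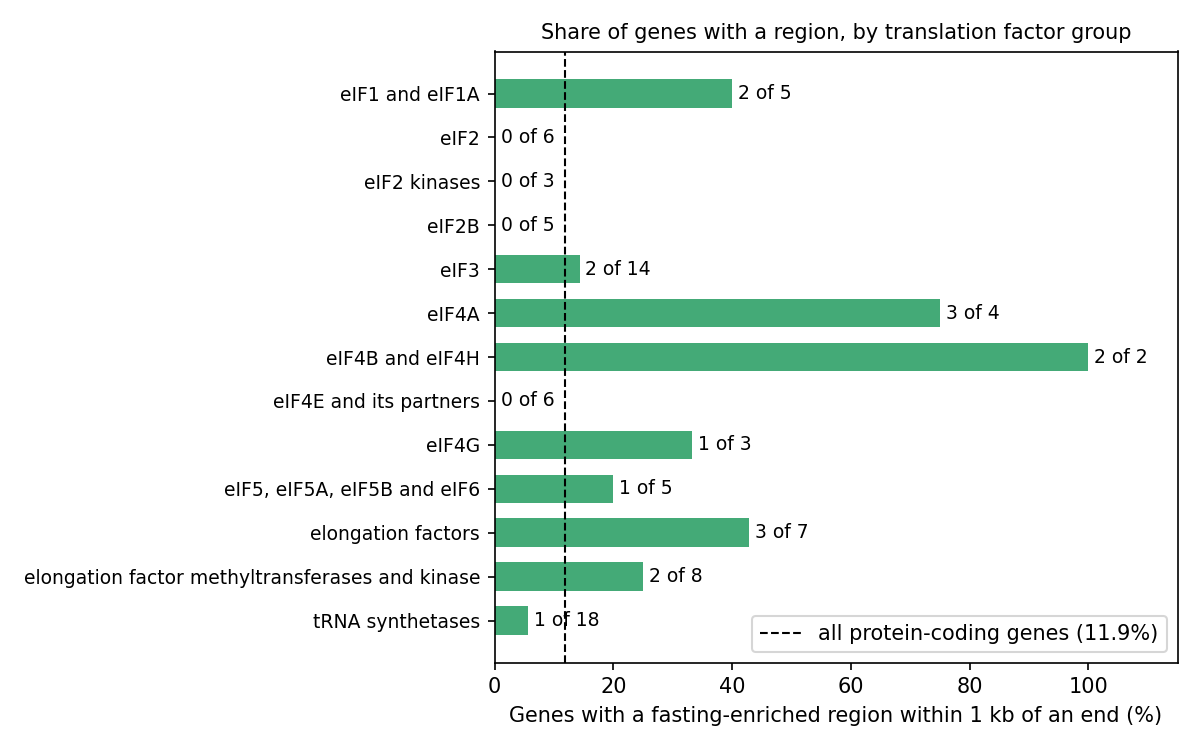
Percent of genes with a fasting-enriched region within 1 kb of an end, for 13 groups of members, with the count beside each bar. The dashed line is the share of all protein-coding genes (11.9%); the eIF4A group (3 of 4), eIF4B and eIF4H (2 of 2) and elongation factors (3 of 7) lie farthest above it, tRNA synthetases lie below it, and eIF2, eIF2B, eIF2 kinases and eIF4E with its partners are at 0. The last group does not include Eif4ebp1 and Eif4ebp2, which are not members and hold a region each.

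The helicase eIF4A, which unwinds mRNA leaders, is encoded by Eif4a1 and Eif4a2, and both held a region. Eif4a2, the form prominent in brain, had a region at chr16:23107982-23108240 with a log-LR of 4.94, 259 bp wide and 514 bp inside the gene. Its region also lay within 1 kb of the small nucleolar RNA gene Snord2, which sits inside Eif4a2. For Eif4a1 the log-LR was 4.03. Eif4a3, a related helicase that serves in the exon junction complex and not in initiation, had the widest of the 21 regions, 469 bp at chr11:119299535-119300003, with a log-LR of 6.11. Eif4a3l1, an Eif4a3-like gene, had its nearest region 1146 bp from an end, just outside the window.

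Among genes for partners of the helicase, Eif4g1 and Eif4h had higher values than Eif4a1, Eif4a2 and Eif4a3. Eif4g1, the scaffold that joins eIF4A to the cap-binding protein and to eIF3, had a region of 390 bp at chr16:20673192-20673581 with a log-LR of 6.83. Eif4h, an RNA-binding protein that stimulates the helicase, had one of 169 bp at chr5:134638782-134638950 with a log-LR of 6.80. Eif4b, the other stimulator of the helicase, had a pair of regions, with log-LR values of 4.32 and 5.47 and a gap of 65 bp between them. The cap-binding protein gene Eif4e itself had none, and its nearest region was 36.9 kb away. Its relatives Eif4e1b, Eif4e2 and Eif4e3, the 4E-BP gene Eif4ebp3 and the eIF4E transporter Eif4enif1 had none either, with nearest regions at least 3.08 kb away. The other 4E-BP genes, Eif4ebp1 and Eif4ebp2, which the rule leaves out, did hold a region (log-LR 7.61 and 8.38). Of the other scaffolds, Eif4g2 had none, and Eif4g3 had a region inside the gene but 1941 bp from its end (log-LR 6.08). Eif4g3 did count where the 1 kb was taken from annotated starts in place of gene ends.

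Among factors that scan for the start codon, Eif1 and its close relative Eif1b both held a region, with log-LR values of 5.32 and 5.10. eIF1 guards the accuracy of start codon choice. The Eif1 region began 40 bp inside the gene, and that of Eif1b ended 222 bp before the gene and overlapped the long non-coding RNA gene D830035M03Rik. Eif1a, Eif1ad and the X-linked Eif1ax had none. Eif5b, which helps the ribosomal subunits join, held a region of 120 bp (log-LR 4.55), the smallest width in the whole list, which lay within 1 kb of Txndc9 as well. Eif5, Eif5a, Eif5a2 and Eif6 had none.

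The eIF3 complex held a region at 2 of 14 genes (14.3%), close to the share of all genes. Eif3a, its largest subunit, had a region on each side of its start. One of 405 bp lay inside the gene at chr19:60790246-60790650 with a log-LR of 6.66, and one of 145 bp lay before it with a log-LR of 4.31. Eif3h had a region of 148 bp at chr15:51865121-51865268 with a log-LR of 5.30. Eif3b held 2 regions inside the gene, 3774 and 4094 bp from its end (log-LR 4.64 and 4.86), outside the window. The other 11 genes had their nearest region farther away, up to 578 kb for Eif3j1.

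The members that encode eIF2, eIF2B and 3 of the eIF2 kinases held no region at an end. The 6 genes counted with eIF2 were the subunit genes Eif2s1, Eif2s2, Eif2s3x and Eif2s3y and the genes Eif2a and Eif2d, named for related functions. The nearest regions were 14988 bp (Eif2d) to 839 kb (Eif2s3y) from their ends. The 5 eIF2B genes had theirs 26.5 to 372 kb away. Of the eIF2 kinases, Eif2ak4 (GCN2), which senses uncharged tRNA, had the nearest, 4.08 kb from an end, and that region lay at the end of Srp14. Eif2ak1 and Eif2ak2 had theirs 44.0 and 33.8 kb away. All 3 members on sex chromosomes, Eif1ax, Eif2s3x and Eif2s3y, were without a region. Of all 2609 protein-coding genes with a region 2594 were autosomal, so few genes on sex chromosomes held one, and nothing is read from these 3.

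Elongation factors held the highest value of all members. Eef1a1, which delivers charged tRNAs to the ribosome, had 2 regions. The stronger had a log-LR of 8.69 at chr9:78481377-78481648, 76 bp inside the gene, and the other 4.87, with 418 bp between them. Of all 2474 regions at protein-coding gene ends, 4.41% had a log-LR at or above 8.69. Its paralog Eef1a2, which replaces Eef1a1 in mature neurons and muscle, had none within 1 kb of an end. Eef1a1 has many processed copies in the genome, and how reads that match several places were handled is not given in the sources used here. Eef2, which moves the ribosome by a codon, had a log-LR of 3.67 in a region of 139 bp. Eef1d, part of the exchange factor of eEF1A, had regions of 4.02 and 3.33, both within 1 kb of Tigd5, and the weaker of them overlapped Tigd5 and not Eef1d. Eef1b2 and Eef1g had none, nor did Eef1e1, whose product is a scaffold of the synthetase complex, nor did Eef2k, the kinase that halts eEF2.

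Methyltransferases of eEF1A added 2 genes. Eef1akmt3 had a log-LR of 4.76 in a region that also overlapped Mettl1, a tRNA methyltransferase gene, and Eef1akmt2 one of 4.49. Eef1akmt1 had a region within the gene, 5160 bp from an end (log-LR 5.74). Eef1akmt4 and the readthrough gene Eef1akmt4-ece2, which share their start, had none at an end. The region nearest to Eef1akmt4 was 1951 bp away at Camk2n2, and that region (log-LR 3.58) lay inside Eef1akmt4-ece2, 9219 bp from its end.

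Of the 18 tRNA synthetases Tars alone, which loads threonine, held a region at an end, of 241 bp at chr15:11399351-11399591 with a log-LR of 5.08. Aars had a region 1043 bp and Qars one 1891 bp from an end, which lay at the ends of Exosc6 and Qrich1. With these 2 genes, counted in a window of 3 kb, the synthetases had 3 of 18, against 14.7% of all protein-coding genes. At 3 kb they were thus no longer below the share of all genes. At the limit of the window, the region farthest from an end that counted was the weaker of Eef1a1 at 766 bp (log-LR 4.87), and the nearest that did not was that of Aars at 1043 bp (log-LR 4.80). Over all 69 genes without a region the nearest one lay 1.04 to 839 kb away, with a median of 53.8 kb, and for 51 of them it was more than 10 kb away. The plot of distances to the nearest region shows the distance of each gene.

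**Figure D2:**
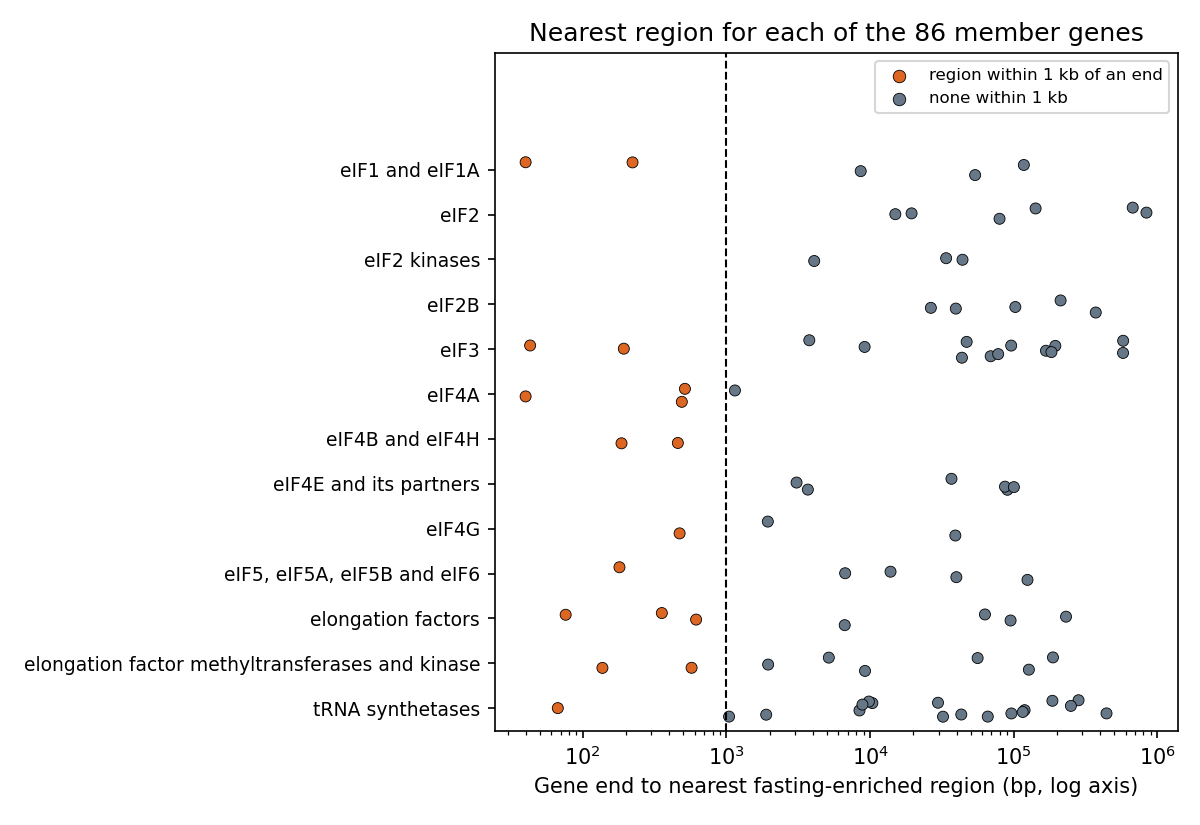
Distance from the nearer gene end to the nearest fasting-enriched region for each of the 86 genes, by group, on a log axis with the 1 kb limit dashed. The 17 genes with a region sit at 40 to 615 bp; the other genes start at 1043 bp and most lie beyond 10 kb.

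The strength of the regions was ordinary for gene ends. Their log-LR had a median of 4.94 with quartiles of 4.32 and 5.47, against a median of 4.94 with quartiles of 4.18 and 6.07 over all 2474 regions at protein-coding ends. The range was 3.33 to 8.69 in members and 3.11 to 88.1 over all. Width had a median of 241 bp in members and 205 bp over all. Of the 17 genes, 4 (Eef1a1, Eif3a, Eif4b and Eef1d) held 2 regions, or 23.5%, against 8.13% of all genes with a region that held 2 or more. The pairs at Eif4b, Eif3a and Eef1a1 were only 65, 129 and 418 bp apart. With regions within 1 kb merged, the 17 genes held 18 regions, and Eef1d alone kept its pair. The share over all genes after merging was not computed. Regions were shared with the end of another protein-coding gene at 3 of the 17 (17.6%), against 26.5% of all genes with a region. Members with a region had a median length of 14989 bp and members without one 17.9 kb, whereas over all genes those with a region were longer, 27.3 kb against 16.1 kb.

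**Figure D3:**
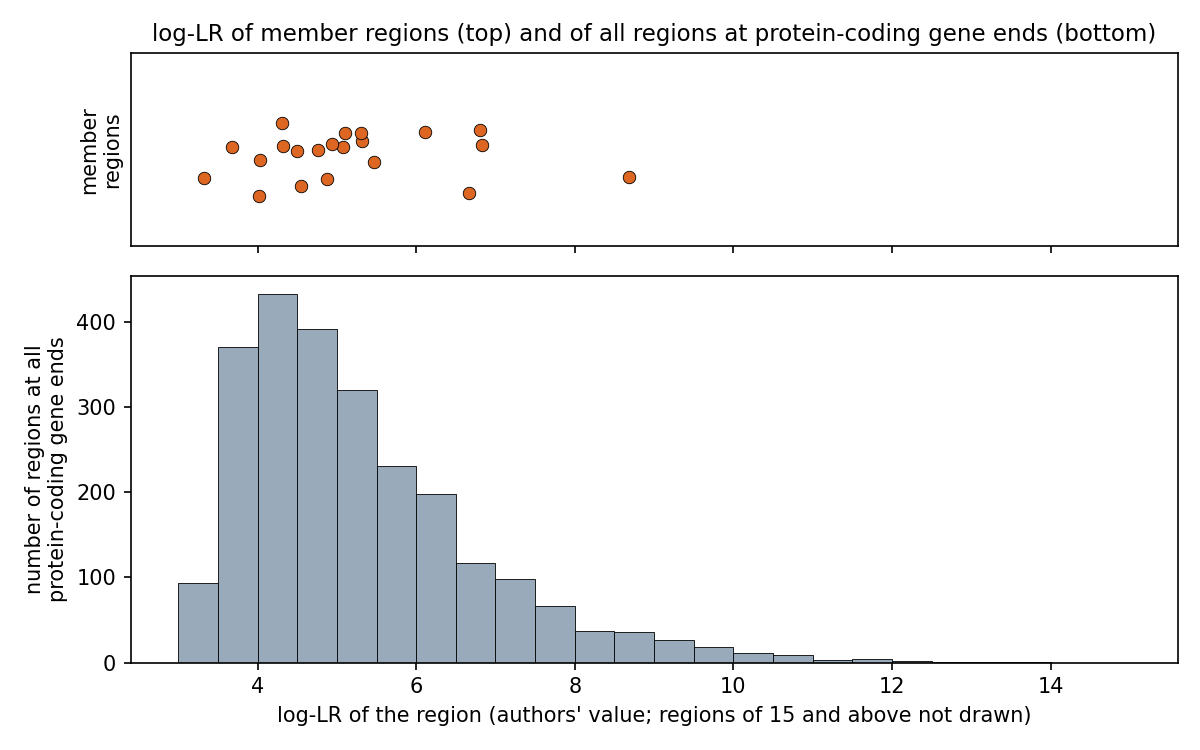
Top, log-LR of the 21 member regions, 1 point each, with vertical scatter only to separate points. Bottom, number of all 2474 regions at protein-coding gene ends by log-LR, in steps of 0.5; 9 of them at 15 and above are not drawn. The member regions lie over the body of the distribution, with Eef1a1 at 8.69 the highest.

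The regions lay at the starts of the genes and mostly just inside them. Strand and start were known from the RefSeq promoter table (build GRCm38.p6) for 14 of the 17 genes, and all 17 of their regions were nearer to the start than to the far end. Over all protein-coding genes this held for 2161 of 2295 gene-region pairs (94.2%). Of the 17 regions 15 lay wholly inside the gene (88.2%), against 78.5% of start-side regions over all genes. The distance from the end of the gene at which it starts to the near edge of these 15 regions ranged from 40 to 766 bp, with a median of 355 bp in members and 267.5 bp over all genes. Measured from the nearest start in the promoter table, the median in members was 186 bp and the lowest 0, for Eef1akmt2, whose region crosses such a start. Of the 7 regions at eIF4 genes, those of Eif4h, Eif4g1, Eif4a1 and Eif4a2 and the stronger of Eif4b had near edges 459, 472, 489, 514 and 500 bp inside. The region of Eif4a3 and the weaker of Eif4b did not, at 40 and 186 bp. Over all genes 5.13% of inside regions had their near edge between 459 and 514 bp, a range set from these values after they were seen, so the shares are not compared.

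**Figure D4:**
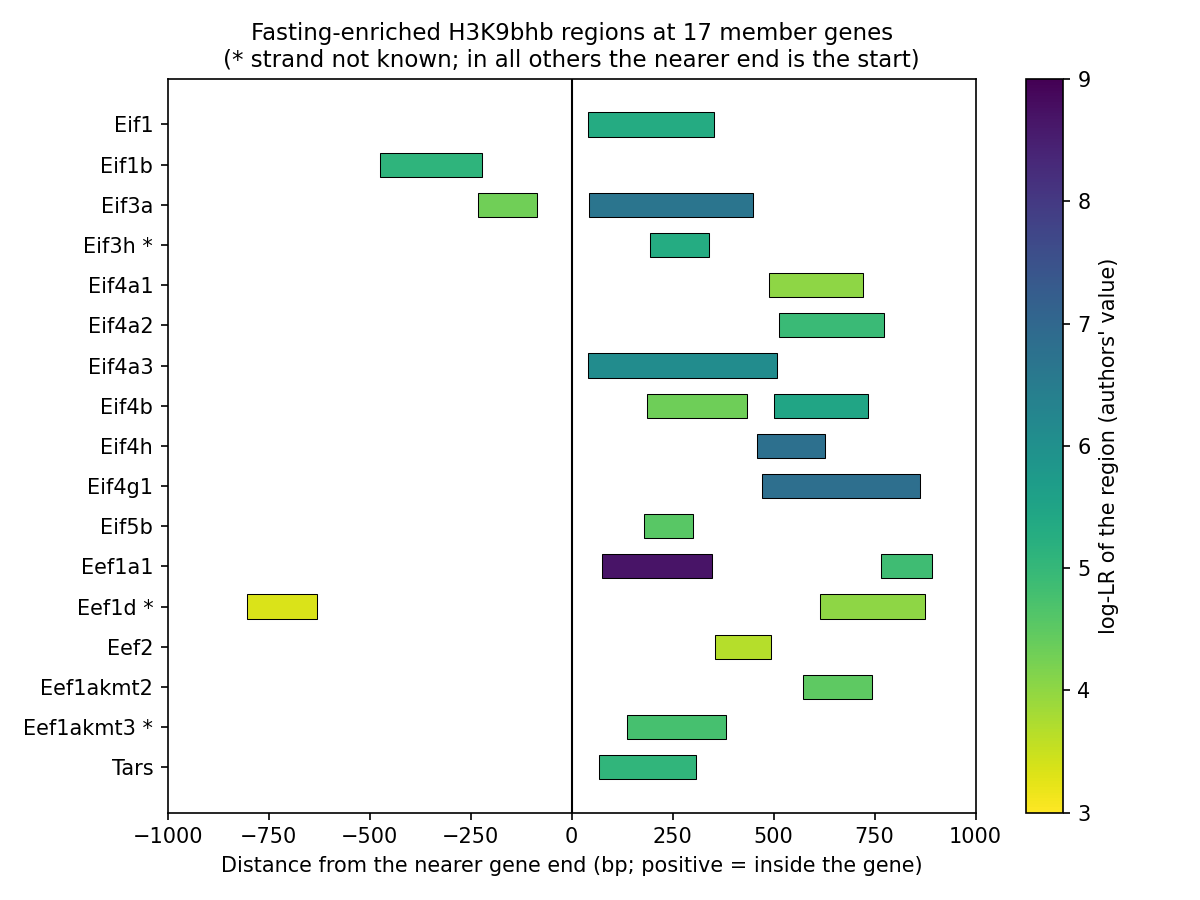
Position of each of the 21 regions relative to the nearer gene end, with positive distances inside the gene, coloured by log-LR. For genes marked with an asterisk the strand is not known. Most bars lie to the right of 0, those of Eif1b and 1 each of Eif3a and Eef1d lie to the left, and 5 of the 7 regions at eIF4 genes have their near edge at 459 to 514 bp.

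For 5 genes a region reached into the promoter window of the RefSeq table, and the 250 bases before their annotated start are shown to place the mark on the sequence. Capitals are bases inside a fasting-enriched region. Eif3a has 145 such bases, Eef1akmt2 has 80, whose region continues across a start that lies inside the annotated gene, and Eif1b has 29. In Eif4a3 and Eif1 the region begins 40 bases after the start, so that no base shown is in capitals.
Eif3a, chr19:60790694-60790943, minus strand: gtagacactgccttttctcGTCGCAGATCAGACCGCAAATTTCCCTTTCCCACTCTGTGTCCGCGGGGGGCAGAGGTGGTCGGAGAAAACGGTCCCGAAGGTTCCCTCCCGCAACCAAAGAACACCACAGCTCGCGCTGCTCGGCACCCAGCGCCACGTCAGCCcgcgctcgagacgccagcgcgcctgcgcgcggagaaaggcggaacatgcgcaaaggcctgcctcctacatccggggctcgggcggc
Eif4a3, chr11:119300044-119300293, minus strand: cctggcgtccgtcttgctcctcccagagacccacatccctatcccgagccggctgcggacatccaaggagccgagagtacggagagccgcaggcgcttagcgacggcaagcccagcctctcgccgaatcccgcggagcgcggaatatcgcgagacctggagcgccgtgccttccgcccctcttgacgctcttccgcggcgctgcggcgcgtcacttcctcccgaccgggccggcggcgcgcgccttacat
Eif1, chr11:100319699-100319948, plus strand: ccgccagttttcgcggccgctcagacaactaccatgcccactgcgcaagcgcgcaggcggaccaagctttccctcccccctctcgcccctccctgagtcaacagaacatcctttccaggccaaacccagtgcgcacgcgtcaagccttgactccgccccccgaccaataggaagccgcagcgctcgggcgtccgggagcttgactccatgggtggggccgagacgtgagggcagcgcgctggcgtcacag
Eif1b, chr9:120492356-120492605, plus strand: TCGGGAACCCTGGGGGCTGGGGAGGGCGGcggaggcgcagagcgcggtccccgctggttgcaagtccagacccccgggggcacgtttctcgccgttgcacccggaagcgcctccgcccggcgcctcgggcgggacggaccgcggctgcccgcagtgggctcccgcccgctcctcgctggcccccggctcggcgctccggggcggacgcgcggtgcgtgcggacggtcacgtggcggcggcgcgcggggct
Eef1akmt2, chr7:132852648-132852897, minus strand: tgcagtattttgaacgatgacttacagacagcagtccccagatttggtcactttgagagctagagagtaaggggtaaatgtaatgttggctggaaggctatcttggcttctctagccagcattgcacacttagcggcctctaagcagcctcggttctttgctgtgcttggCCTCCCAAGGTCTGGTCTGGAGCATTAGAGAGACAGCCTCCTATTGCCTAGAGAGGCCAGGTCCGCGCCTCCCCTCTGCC

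These promoters were rich in CpG, apart from Eef1akmt2 with 5 CpG in the 250 bases, against 24 to 42 in the other 4. Promoter windows ran from 250 bases before to 50 after the start. GC content had a median of 65.3% in the 14 windows of members with a region and 60.0% in the 65 windows of members without, against 63.7% and 55.3% over all protein-coding genes with and without a region. The ratio of observed to expected CpG had medians of 0.984 and 0.801 in members with and without a region, and 0.807 and 0.505 over all genes with and without one. Members thus had more CpG than other genes whether or not they held a region.

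The windows were searched on both strands for 9 motifs. The E-box CACGTG, a palindrome bound by basic helix-loop-helix factors such as Myc, USF and CLOCK with BMAL1, was present in 7 of 14 members with a region and in 11 of 50 without one (22.0%). It was present in 8.91% of all 17492 protein-coding genes in the table and in 11.4% of those with a region. Among windows with an observed to expected CpG ratio of at least 0.75, a limit chosen after the data were seen, it was in 29.6% of member windows and 11.8% of all. Among the 11 genes without a region, Eef1akmt4 and Eef1akmt4-ece2 share a start and so the same match. The 7 genes with a region were Eef2, Eif1b, Eif3a, Eif4a1, Eif4g1, Eif4h and Tars. In 5 of them a match lay before the start, and 40 bases around each are shown with the E-box in capitals. The match began 43, 24, 189, 54 and 96 bases before the start, in the order shown.
Eef2, chr10:81176571-81176610, plus strand: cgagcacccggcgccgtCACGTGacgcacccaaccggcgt
Eif1b, chr9:120492565-120492604, plus strand: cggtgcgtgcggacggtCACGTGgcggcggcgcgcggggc
Eif4a1, chr11:69672590-69672629, minus strand: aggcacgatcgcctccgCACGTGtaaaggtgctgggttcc
Eif4g1, chr16:20672656-20672695, plus strand: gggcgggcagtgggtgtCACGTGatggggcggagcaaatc
Eif4h, chr5:134639483-134639522, minus strand: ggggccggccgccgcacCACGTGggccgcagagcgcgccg

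None of these 5 E-boxes lay within the fasting-enriched region of its gene. For Eef2, Eif4a1, Eif4g1 and Eif4h this was fixed in advance, because their regions do not reach the searched window. Region sequence outside the windows was not searched, so nothing is read from this. The match in Eif3a and that in Tars lay 23 and 20 bases after the start, and Eif4g1 had a second match 16 bases after its start. Eif4e and Eif5a2, which held no region, had 2 matches each, and Eif5a, also without a region, had 1 in each of 3 windows. The Eif5a windows of the starts at 69921275 and 69921386 overlap and hold the same match. The GC box GGGCGG was in 11 of 14 windows of members with a region (78.6%) and 45 of 65 without (69.2%), against 66.6% of windows of all genes with a region and 46.2% of all windows. For the ETS core CCGGAAG the counts were 1 of 14 in members with a region and 22 of 65 in members without, against 16.1% of windows of all genes with a region and 11.6% of all windows. The 65 windows came from 50 genes, so some genes counted more than once, whereas the 14 windows came from 14 genes. The core of the amino acid response element, TGATGNAA, which ATF4 binds in genes switched on by amino acid shortage, was in 1 of 14 (Tars) and 6 of 65, and in 3.60% of all windows. The NRF1 core GCGCATGC and the CCAAT box CCAAT were in 3 of 14 each, against 3.52% and 38.2% of all windows. The cyclic AMP response element TGACGTCA, the YY1 core AAGATGGC and the TATA box TATAAA were in 1 of 14 each, against 2.23%, 3.05% and 12.6%. In members without a region these motifs, in the order named, were in 2, 23, 0, 5 and 4 of 65. Over all genes with a region they were in 5.56%, 34.6%, 3.03%, 4.81% and 6.06% of windows. E-boxes and the cyclic AMP response element share the letters ACGT. A match describes the letters and shows no binding.

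Other genes of translation were counted from 5 lists. Regulators of initiation and elongation had a region at 7 of 23 genes (30.4%). The 4E-BP genes Eif4ebp2 (log-LR 8.38) and Eif4ebp1 (7.61), whose products hold eIF4E inactive, led them, followed by Ppp1r15b (5.23), which directs the phosphatase of eIF2, and Cyfip1 (5.03), an eIF4E-binding partner of FMRP. Atf4, Rps6 and Rps6kb1 also held one, at 3.59, 3.82 and 3.58. The region counted for Rps6kb1 lay also at an end of Tubd1. Mitochondrial translation factors had 2 of 10, Tufm (7.60) and Guf1 (4.84), which encode mitochondrial elongation factors. Mitochondrial tRNA synthetases had 3 of 17, Vars2 (9.35), Fars2 (5.95) and Iars2 (4.94), and each of the 3 shared its region with a neighbouring gene, Gtf2h4, Lyrm4 and Bpnt1. Other genes of the cytosolic synthetase complex had 1 of 4, the scaffold gene Aimp1 (5.87), a region shared with Tbck. Termination and recycling genes had 1 of 8, the release factor gene Gspt1 (4.70), a region shared with LOC115488671. The share of all genes would give 2.74 regulators, and the other 4 lists differed from what it would give by less than 1 gene.

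In human cells the messages of eEF1A, eEF1B, eEF2 and the eIF3 subunits e, f and h begin with a run of pyrimidines through which mTOR controls their translation. Of their 9 mouse genes, a set picked after the values were seen, 4 held a region (Eef1a1, Eef1d, Eef2 and Eif3h), where the share of all genes (11.9%) would give 1.07. The other 5 did not (Eef1a2, Eef1b2, Eef1g, Eif3e and Eif3f). Because of how the set was picked, nothing is read from this count.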

How the data were processed

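Each of the 2 deposited lists gives, per the file headers, a position, a name and a log-LR for every region, and this log-LR was used as the authors' score for the region. The submitters' processing notes name Bowtie2, MACS2 and mm10. How the score was scaled, its log base and cutoff, how multiply matching reads were handled and whether libraries were pooled was not stated there. The lowest log-LR in the fasted list was 3.11.

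Starts were read as counted from 0 and are printed from 1. Genes came from RefSeq (GRCm38.p6, which is mm10), without mitochondrial DNA. A region counted for a gene if it overlapped the 1 kb on either side of either gene end. Start and strand came from the RefSeq promoter table, which matched 64 of the 86 members and 17492 of all protein-coding genes. No test was made, since no file holds values for single mice; counts stand beside those over all protein-coding genes. The overlap step was tested on simulated data. Every member with a region was named, and of the others those within 3 kb of a region and on sex chromosomes; other names were chosen after their values were seen. Members and lists were chosen with earlier results of these data known. Alternatives varied the window, overlap rule, log-LR limit, merging and sharing. Python 3.11.15, numpy 2.4.6, pandas 2.3.3 and matplotlib 3.10.9 were used.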

Additional observations from a re-analysis of the deposited data

How the results depend on the processing

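The count of 17 of 86 genes (19.8%, against 11.9% of all genes) moved with the limit on log-LR. At a log-LR of at least 5 it was 10 genes (11.6%, against 5.90%), with a median log-LR of 5.79 in members against 6.13 over all regions at gene ends, and at a log-LR of at least 10 it was 0 genes (0.0%, against 0.183%). These limits select on the value itself. Under the other 8 settings the count was 14 to 22, and the median log-LR of member regions stayed within the quartiles of the value reported. The 0 of 14 for Eif2 symbols was also 0 at 3 kb. A window of 500 bp and a log-LR limit of 5 only take regions away, so there the 0 could not change. At a log-LR of 5 the eIF4A group had 1 of 4 and the elongation factors 1 of 7, against 5.90% of all genes. At 3 kb the tRNA synthetases had 3 of 18, against 14.7% of all genes, and so were no longer below that share. Depth and signal per library are unknown, which limits every count to what the authors listed. No paired analysis was possible because no file gives values for single libraries, and leaving out replicates was not run for that reason.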
